A study of Mus musculus with 25 samples.

Results

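The 10 genes described here code for feedback inhibitors of FGF-ERK signalling and for Etv transcription factors at its end: Spry1, Spry2 and Spry4 (Sprouty proteins), Spred1 and Spred2 (Sprouty-related proteins), Dusp4, Dusp5 and Dusp6 (dual-specificity phosphatases), and Etv4 and Etv5. They were chosen by symbol, and all 10 were found among the 24221 genes of the table. Their chromatin was measured by ChIP-seq (chromatin immunoprecipitation and sequencing) in mouse fibroblasts, called tdMEFs in the labels, at 3 stages of a chemical reprogramming towards neural stem cells. The day 8 (D8) and day 4 (D4) groups had spent 8 and 4 days in M9 medium at 5% oxygen, and the day 0 (D0) group was grown in MEF medium with serum at 20% oxygen. M9 lists no serum and holds basic FGF (bFGF, 10 ng per ml), retinoic acid, SMER28, CHIR99021 (which activates Wnt signalling), Hh-Ag1.5 (an agonist of Smoothened), the receptor blockers LDN193189 (BMP) and A83-01 (TGF-beta), Parnate, which inhibits LSD1, and RG108, which inhibits DNA methyltransferases. The labels of the D0 samples name tdMEFs, while the design text sets the name ciNSLC beside day 0; the sample labels are followed here, and what tdMEFs stands for is not spelled out in them. Loss of serum, lower oxygen and the 9 added agents came together, so they cannot be told apart. Each stage has 1 library per mark, 12 libraries in all, so no test was possible and every difference is between single libraries.

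FGF receptors signal through Ras, Raf and MEK to the kinase ERK, which enters the nucleus and switches on, among other genes, several that damp the same pathway. Sprouty and Spred proteins act upstream, at the level of Ras and Raf. Dusp4, Dusp5 and Dusp6 remove phosphate from ERK itself, Dusp6 in the cytoplasm and the other two in the nucleus. Etv4 and Etv5 are ETS factors that are widely used, with Spry and Dusp6 transcripts, as a readout of FGF activity in embryos. In neural progenitors FGF acts as a mitogen, and serum growth factors feed the same ERK pathway in fibroblasts. H3K4me3 marks promoters that are active or poised, H3K27ac active promoters and enhancers, H3K4me1 enhancers and the flanks of promoters, and H3K27me3 regions under Polycomb repression.

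Depth was lowest for H3K27ac at D0, with 1.58 M reads, and highest for H3K4me3 at D8, with 34.9 M reads. Values are RPM, reads scaled to the size of the library, in a region of each gene that the sources used here do not define. They depended only weakly on gene length, with Spearman's rho across 23175 genes between 0.05 and 0.33. Levels of different genes are therefore set side by side only as percentiles among all genes of a library, and these too are per region, not per length. All 120 values of the 10 genes were whole numbers of reads, and their 95% Poisson intervals cover counting error only. In bulk chromatin, fewer cells with a mark and less of it per cell cannot be told apart. The D0 chromatin also differed from the later stages in sex-chromosome signal. Xist, which acts in X inactivation, had 1.03, 41.1 and 47.9 RPM of H3K4me3 at D0, D4 and D8. In the same mark all 4 Y-linked genes listed were at least 2-fold lower at D8 than at D0 relative to the general shift, as were 1.72% of all compared genes. The part of this difference in the results was not tested. Comparisons of D8 with D4 do not use the D0 libraries except through thresholds and pseudocounts. Of 10 defining genes of fibroblasts, 10, 9 and 9 were at or above the median H3K4me3 of the library at D0, D4 and D8, with S100a4 below it at D4 and D8. They summed to 329, 402 and 543 RPM over the 3 stages. At least 2-fold lower at D8 than at D0 relative to the general shift were 5 of them, against 1.72% of all compared genes. The 7 neural stem cell genes summed to 16.6, 34.8 and 102 RPM, and 1 of the 6 compared, Nes, was higher by that measure, against 1.84% of all compared genes. Blood, endothelial and epithelial lists summed to between 5.13 and 21.1 RPM. In H3K27ac the 10 fibroblast genes summed to 109, 113 and 177 RPM at D0, D4 and D8, with 2 (Dcn and Twist1) at least 2-fold higher and 0 lower at D8 than at D0. Of all compared genes 9.82% were higher and 9.22% lower in this mark. The neural list summed to 9.79, 11.04 and 22.3 RPM, with 0 of 6 compared past 2-fold. Blood genes summed to 13.7, 8.60 and 11.9 RPM with Ptprc lower (1 of 4 compared), endothelial genes to 12.004, 8.38 and 8.39 RPM with Pecam1 and Cdh5 lower (2 of 3 compared), and epithelial genes to 7.58, 5.55 and 6.74 RPM with 0 of 1 past 2-fold. The part of these differences in the results was not tested.

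Promoter sequences are shown for 4 of the genes, chosen after values and sequences had been seen. Dusp6, Spred2 and Etv5 are members with higher H3K27ac at D8 than at D0, and Dusp5 stood apart from the other phosphatases in H3K4me3. The sequences are from RefSeq (GRCm38.p6), in a table that holds 250 bases before and 50 after a start site and from which windows of 7 of the 10 genes were used. Lower case letters run 5′ to 3′ on the strand of the gene. Capitals in the first 3 mark TGAATG on either strand, the core of the sites of Capicua, a repressor that ERK inactivates, and the CArG box, which serum response factor binds.
Dusp6, chr10:99262981-99263280, plus strand: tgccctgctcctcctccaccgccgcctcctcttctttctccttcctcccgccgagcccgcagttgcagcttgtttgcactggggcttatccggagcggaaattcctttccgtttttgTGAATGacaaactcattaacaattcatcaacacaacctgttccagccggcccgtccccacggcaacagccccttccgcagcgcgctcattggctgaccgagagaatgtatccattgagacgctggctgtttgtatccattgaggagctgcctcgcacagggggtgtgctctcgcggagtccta
Etv5, start site inside the gene, chr16:22438319-22438618, minus strand: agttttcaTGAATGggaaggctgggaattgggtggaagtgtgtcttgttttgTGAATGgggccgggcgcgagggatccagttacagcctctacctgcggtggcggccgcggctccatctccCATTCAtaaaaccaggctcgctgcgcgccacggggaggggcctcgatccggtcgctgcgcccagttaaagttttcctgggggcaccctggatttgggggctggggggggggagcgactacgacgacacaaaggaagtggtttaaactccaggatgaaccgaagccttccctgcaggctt
Dusp5, chr19:53528895-53529194, plus strand: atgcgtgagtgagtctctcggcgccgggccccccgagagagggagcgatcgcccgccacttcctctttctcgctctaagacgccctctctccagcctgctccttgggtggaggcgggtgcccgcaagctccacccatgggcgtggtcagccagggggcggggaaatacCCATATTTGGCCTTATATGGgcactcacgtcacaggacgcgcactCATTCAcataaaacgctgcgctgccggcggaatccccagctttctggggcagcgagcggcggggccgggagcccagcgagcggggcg
Capitals in the last mark the ETS core GGAAG on either strand.
Spred2, chr11:19924192-19924491, plus strand: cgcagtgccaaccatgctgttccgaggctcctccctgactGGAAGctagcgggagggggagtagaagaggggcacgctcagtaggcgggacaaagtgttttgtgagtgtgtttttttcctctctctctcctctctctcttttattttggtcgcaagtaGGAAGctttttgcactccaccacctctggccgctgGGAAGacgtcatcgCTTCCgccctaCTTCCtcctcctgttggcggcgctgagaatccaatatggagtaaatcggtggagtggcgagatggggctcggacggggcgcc

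TGAATG was found in 1 copy in the Dusp6 window, in 1 copy in that of Dusp5 and in 3 copies at the inner start site of Etv5, and in 12.7% of the 32851 windows of the table. The other Etv5 window, chr16:22439521-22439820, held neither TGAATG nor the ETS core. Which start site the Etv5 values cover is not known. The Dusp5 window holds a pair of adjacent CArG boxes, 82 and 72 bases before the start site, and 1.63% of all windows hold at least 1. Both motifs were chosen after the sequences had been read. The ETS core was in 6 of the 8 windows of the 10 genes and in 71.4% of all windows, and its 5 copies in the Spred2 window are reached by 2.06% of windows. None of the 8 windows held CCGGAAGT, TGAATGAA, TGAATGGA, TGANTCA or TGACGTCA on either strand, which occur in 3.89%, 1.30%, 1.21%, 7.81% and 1.79% of all windows. All 8 windows were CpG-rich, with a ratio of observed to expected CpG of 0.70 to 1.03 against a median of 0.38 over the table. These matches describe letters in the windows and show no binding.

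Most of these genes carried more H3K27ac at D8. Relative to the median change of all compared genes, 6 of the 10 were at least 2-fold higher at D8 than at D0 (Spry1, Spry4, Spred2, Dusp4, Dusp6 and Etv5) and 0 were lower. Over all 16729 compared genes 9.82% were higher and 9.22% lower by the same measure. The change used here is log2 of the ratio of RPM after adding a pseudocount of 1.53 RPM, minus the median over all compared genes, and is called centred below; it understates the change of low genes. The median centred change was 1.13 for the 10 genes and 0 for all genes by construction, and 9 of the 10 lay above 0. A comparison group was chosen after the values were seen. It held genes whose H3K4me3, averaged over the stages, was at least that of the lowest of the 10. The 10 genes had a median H3K4me3 percentile of 85.8, 90.3 and 97.0 at D0, D4 and D8. This group therefore also holds genes with less H3K4me3 than most of the 10. Of 9198 compared, 14.4% were at least 2-fold higher in H3K27ac and 66.0% lay above 0, with a median centred change of 0.26. Etv4 had a centred change of -0.28. The count rests in part on low values: with the pseudocount times 4 it was 2 (Spred2 and Dusp6), against 1.37% of all genes.

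The H3K27ac of the D0 library rests on 2 to 18 reads per member, and D8 against D4, which shares the D8 library with the comparison above, does not use it. At D8 against D4, all 10 genes had a centred change above 0, from 0.09 (Etv4) to 1.23 (Spry1), with a median of 0.79. In the comparison group with at least the H3K4me3 of the lowest of the 10, averaged over the stages, 65.3% of 9154 lay above 0, with a median of 0.14. For 9 of the 10 the 95% counting interval of the D8 to D4 ratio lay above the median fold of all genes, 1.31, as it did for 20.7% of all compared genes, and for 0 it lay below, against 7.18%. Here and below the median fold includes the pseudocount and the ratios do not. Where a mark rose in general, this lowers the median fold and favours a place above it. Etv5 passed narrowly, with a lower end of 1.310 against 1.308. Only Spry1 passed the 2-fold mark, where 0.874% of all genes were higher and 0.854% lower. The upper end of the H3K27ac distribution also lay higher at D8, with a 99th percentile of 8.84, 8.74 and 18.2 RPM at D0, D4 and D8. The values of all genes summed to 5.96%, 5.97% and 8.86% of the library at these stages. After quantile normalization, which uses the 3 stages together, the 10 changes at D8 against D4 ranged between 0.13 and 0.90 and 0 passed, against 0.564% of all genes. At D8 against D0, 5 passed after that step, against 7.31% of all genes, and these were the 6 named above without Dusp4. Without centring, but with the pseudocount kept, 7 of the 10 passed at D8 against D4, as did 7% of all genes.

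**Figure D1:**
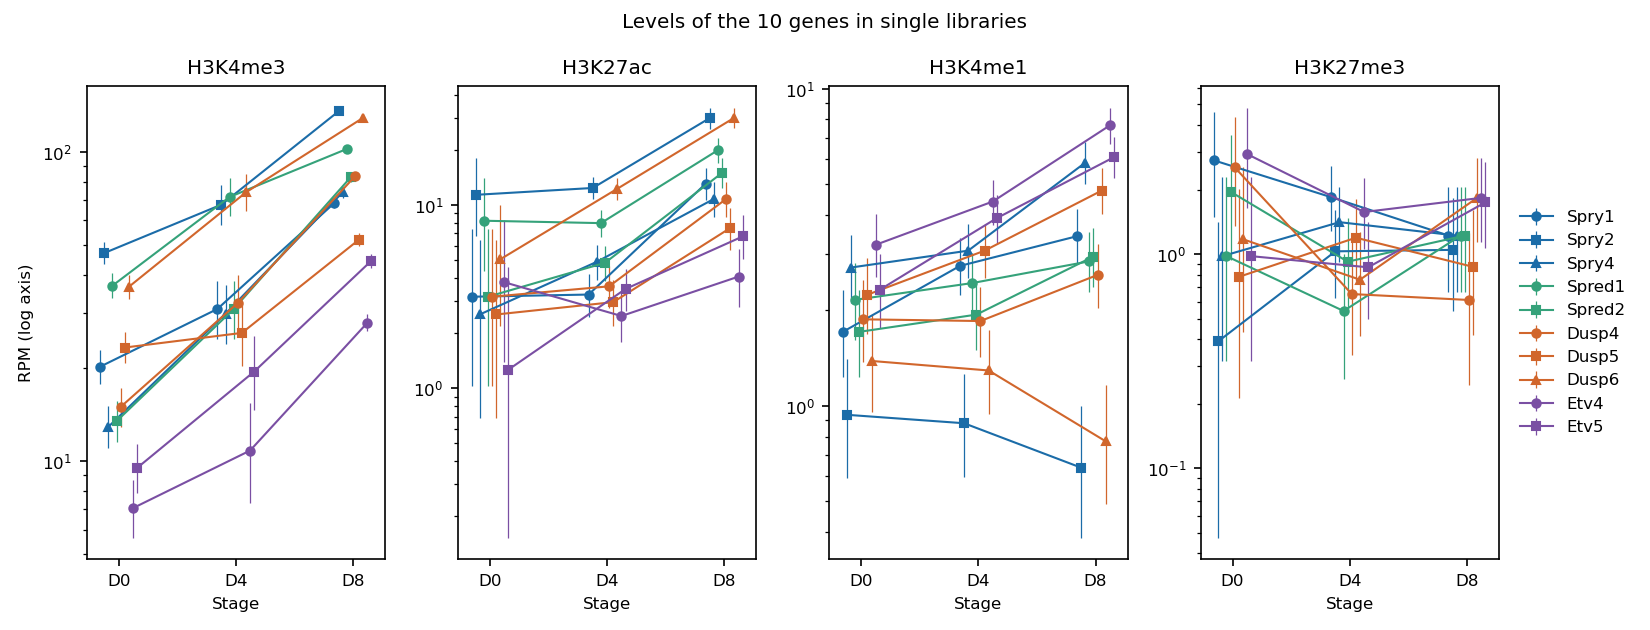
RPM (log axis) of the 10 genes at D0, D4 and D8, 1 panel per mark; points are single libraries, bars are 95% Poisson intervals, colours are gene families. H3K4me3 and H3K27ac run upward to D8 for most genes, while Spry2 and Dusp6 run downward in H3K4me1.

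Before centring, and with a pseudocount of 1.44 RPM added, H3K4me3 was at least 2-fold higher at D8 than at D0 at all 10 genes. On that scale 90.6% of 13401 compared genes passed too. The same count was 3 at D4 against D0 and 6 at D8 against D4, where 13.6% and 40.9% of genes passed. The values of all genes summed to 18.8%, 28.5% and 53.9% of the H3K4me3 library at D0, D4 and D8. The median gene was higher by 1.51 on the log2 scale at D8 against D0 and by 0.60 at D4 against D0, and changes below are centred on these shifts. So centred, 0 of the 10 passed 2-fold in either direction at D8 against D0, where 1.84% of all genes were higher and 1.72% lower. The 10 centred changes ran from -0.40 (Dusp5) to 0.99 (Spred2), with a median of 0.27. In 7 genes the counting interval of the D8 to D0 ratio lay above the median fold of 2.85, in Dusp5 it lay below, and in Spry2 and Spred1 it held that value. Of all compared genes 37.9% lay above and 17.6% below by this rule, so at this depth it separates many genes. At D4 against D0 the changes ran from -0.45 to 0.53 and again 0 passed, against 1.5% of genes higher and 1.18% lower. At D8 against D4, 0 passed as well, against 0.44% higher and 0.76% lower.

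**Figure D2:**
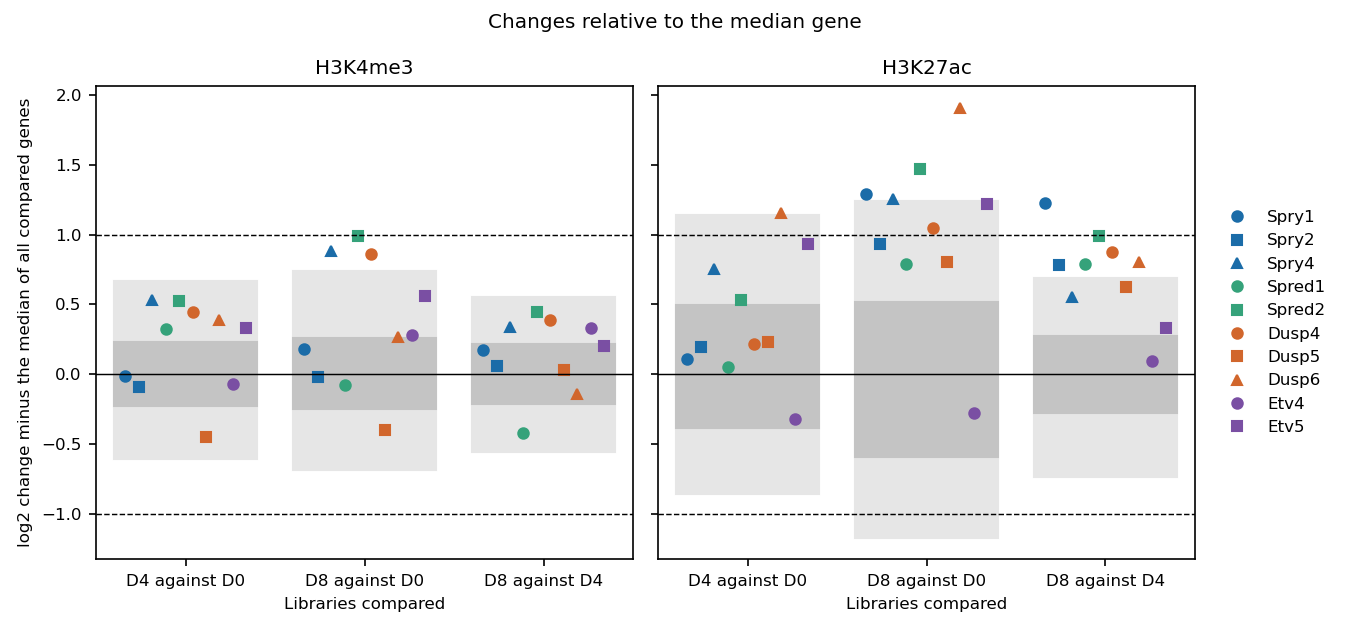
Log2 change of H3K4me3 and H3K27ac minus the median of all compared genes, for 3 comparisons; symbols are the 10 genes, dark and light grey boxes span the central 50% and 90% of all genes, dashed lines mark 2-fold. In H3K27ac at D8 against D0, 6 genes lie above the upper line and Etv4 alone lies below 0.

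Among the Sprouty genes, Spry4 had the largest H3K4me3 change at D8 against D0 and Spry1 the largest H3K27ac change at D8 against D4, while Spry2 was near the top of both marks already at D0. Spry4 had 12.9, 29.9 and 73.9 RPM of H3K4me3 at D0, D4 and D8. That is a 5.73-fold ratio of D8 to D0 (95% counting interval 4.89 to 6.75), a centred change of 0.88, and a place at the 97.1st percentile of all changes. Its H3K27ac was 2.53, 4.90 and 10.8 RPM, with a centred change of 1.25 at D8 against D0. Another gene, Arhgap26, lies within 2000 bases of Spry4 in the annotation, so reads between them cannot be assigned to either gene. The same limit holds for Spred2, Dusp6 and Etv4, which have the lncRNA genes Gm39603, Gm34921 and Gm39392 within that distance.

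Spry1 had similar H3K27ac values at D0 and D4 and more at D8. The ratio of D4 to D0 was 1.03 (0.41 to 3.29), an interval too wide to tell whether these stages differed. It had 3.16, 3.25 and 13.1 RPM at D0, D4 and D8, resting on 5, 55 and 103 reads. The ratio of D8 to D4 was 4.03 (2.88 to 5.70), a change larger than in 99.9% of compared genes. H3K4me3 of Spry1 was 20.2, 31.0 and 68.3 RPM, close to the general shift, with a centred change of 0.18 at D8 against D0. Spry2, whose protein is a widely studied inhibitor of growth factor signalling, had 47.0, 67.4 and 135 RPM of H3K4me3 and 11.4, 12.4 and 29.9 RPM of H3K27ac. It stood above the 99th percentile of both marks in all 3 stages. Its H3K27ac centred change of 0.93 at D8 against D0 was 0.33 after quantile normalization, and its H3K4me3 change was -0.02 centred and 0.22 quantile-normalized, so its direction depends on the scaling.

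The Spred genes code for membrane-bound inhibitors that recruit the Ras regulator neurofibromin. Spred2 had the largest H3K4me3 change of the 10, with 13.5, 31.0 and 82.8 RPM at D0, D4 and D8 and a D8 to D0 ratio of 6.15 (5.26 to 7.22). Its centred change of 0.99 exceeded that of 98.0% of genes and lay just short of 2-fold. H3K27ac of Spred2 was 3.16, 4.84 and 15.0 RPM, with a centred change of 1.47 at D8 against D0 and 0.99 at D8 against D4. Spred1 was high in H3K4me3 already at D0. It had 36.9, 71.4 and 102 RPM of H3K4me3, a centred change of -0.08 at D8 against D0, and 8.21, 7.97 and 20.0 RPM of H3K27ac. Its H3K4me3 ratio of 1.94 (1.63 to 2.29) at D4 against D0 lay above the median fold of 1.52, and that of 1.43 (1.24 to 1.66) at D8 against D4 lay below the median fold of 1.90. Its H3K27ac had a centred change of 0.79 at D8 against D0.

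Dusp6 had the largest H3K27ac change of the 10. The gene had 5.05, 12.3 and 30.01 RPM at D0, D4 and D8, on 8, 208 and 236 reads. The ratio of D8 to D0 was 5.94 (2.96 to 13.9), a centred change of 1.91 that exceeded 99.4% of compared genes, and 1.51 after quantile normalization. By the centred measure Dusp6 was also the only member at least 2-fold higher at D4 than at D0, with 1.16, where 7.5% of genes were higher and 2.37% were lower. Its ratio of D4 to D0 was 2.43 (1.21 to 5.70). Etv5 had a larger ratio, 2.76 (0.73 to 23.3), on 2 reads at D0, and a centred change of 0.93. The count of members past 2-fold at D4 against D0 changed with the pseudocount. At D8 against D4 the centred change of Dusp6 was 0.80, but 0.16 after quantile normalization. H3K4me3 of Dusp6 was 36.6, 73.9 and 129 RPM, above the 99th percentile at each stage.

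Dusp4 and Dusp5, both nuclear phosphatases, differed in H3K4me3. Dusp4 had 15.0, 32.5 and 83.2 RPM at D0, D4 and D8, a D8 to D0 ratio of 5.56 (4.80 to 6.47) and a centred change of 0.86. Dusp5 had 23.3, 26.0 and 52.0 RPM, a ratio of 2.23 (1.97 to 2.53) and a centred change of -0.40. The counting intervals of these ratios do not overlap, and Dusp5 stood at the 85.8th percentile at D8, against the 94.3rd at D0. They did not overlap either at D4 against D0, where Dusp5 had a ratio of 1.12 (0.85 to 1.45) and Dusp4 one of 2.17 (1.67 to 2.80). In H3K27ac the order was less clear. Dusp4 had 3.16, 3.60 and 10.8 RPM and Dusp5 2.53, 2.95 and 7.50 RPM, with centred changes at D8 against D0 of 1.05 and 0.80, and the counting intervals of their ratios overlapped widely.

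Etv5 and Etv4, closely related ETS factors, had few H3K27ac reads and were not separated by them. Etv5 had 1.26, 3.48 and 6.74 RPM at D0, D4 and D8, on 2, 59 and 53 reads, a D8 to D0 ratio of 5.33 (1.41 to 45.2) and a centred change of 1.22. Etv4 had 3.79, 2.48 and 4.07 RPM, on 6, 42 and 32 reads, a ratio of 1.07 (0.44 to 3.14) and a centred change of -0.28. With so few reads at D0 the intervals of the ratios overlap, and at D8 against D4 they do too, at 1.93 (1.31 to 2.85) for Etv5 and 1.64 (1.00 to 2.66) for Etv4. H3K4me3 was 9.50, 19.5 and 44.4 RPM at Etv5 and 7.05, 10.8 and 28.0 RPM at Etv4. These were the lowest H3K4me3 percentiles of the 10 genes in each of the 3 libraries, from the 58.8th to the 80.0th.

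H3K4me1 ran opposite to H3K4me3 within these genes. At D8 Etv4 had the most H3K4me1 of the 10, 7.66 RPM at the 97.8th percentile, followed by Etv5, Spry4 and Dusp5 at 6.08, 5.84 and 4.77 RPM. At the other end Dusp6 and Spry2, with the most H3K4me3, had 0.77 and 0.64 RPM, at the 8.89th and 6.45th percentiles. Over the 10 genes Spearman's rho between the 2 marks was -0.74, -0.89 and -0.95 over D0, D4 and D8, given as a description. Over all 24221 genes it was positive, 0.66, 0.69 and 0.73. Among genes with at least as much H3K4me3 as the lowest of the 10, here cut within each stage, it was 0.23, 0.18 and 0.08 at D0, D4 and D8. Among those with at least the median of the 10 (3280, 2394 and 715 genes) it was -0.0055, -0.17 and -0.39. Both cuts were chosen after the values were seen. The points of a stage share a pair of libraries and, for each gene, an unknown region.

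Changes of H3K4me1 were small by the centred measure, which the pseudocount of 1.63 RPM compresses at levels this low. At D8 against D0, 8 genes were compared and 0 passed 2-fold, where 0.04% of all genes were higher and 1.48% lower. At D4 against D0 (5 compared) and at D8 against D4 (8 compared) 0 passed as well, where 0% of all genes were higher and 0.0364% and 0.00678% lower. The largest centred changes were 0.49 at Etv5, with 2.32, 3.91 and 6.08 RPM at D0, D4 and D8, and 0.46 at Etv4, with 3.22, 4.41 and 7.66 RPM. The changes lay at the 96.8th and 96.2nd percentiles of all compared genes. Without the pseudocount the ratios of D8 to D0 were 2.62 (1.93 to 3.59) at Etv5 and 2.38 (1.83 to 3.11) at Etv4. They were 2.14 at Spry4, 2.13 at Dusp5 and 2.00 at Spry1, and between 1.32 and 1.73 at Spred1, Dusp4 and Spred2. Spry4 (2.73, 3.08 and 5.84 RPM) and Dusp5 (2.24, 3.08 and 4.77 RPM) also had counting intervals of the D8 to D0 ratio above the median fold of 1.39, as did 28.7% of all compared genes. Spry2 and Dusp6 stayed below the level at which genes were compared, 2.49 RPM. Dusp6 had 0.77 RPM at D8 against 1.39 RPM at D0, a ratio of 0.56 (0.31 to 0.98), and Spry2 had 0.64 RPM against 0.94 RPM, a ratio of 0.68 (0.35 to 1.31). For both the interval lay below the median fold, but neither gene is among those it was taken over. The share of all genes below it is not given here, and the interval of Spry2 holds 1.

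**Figure D3:**
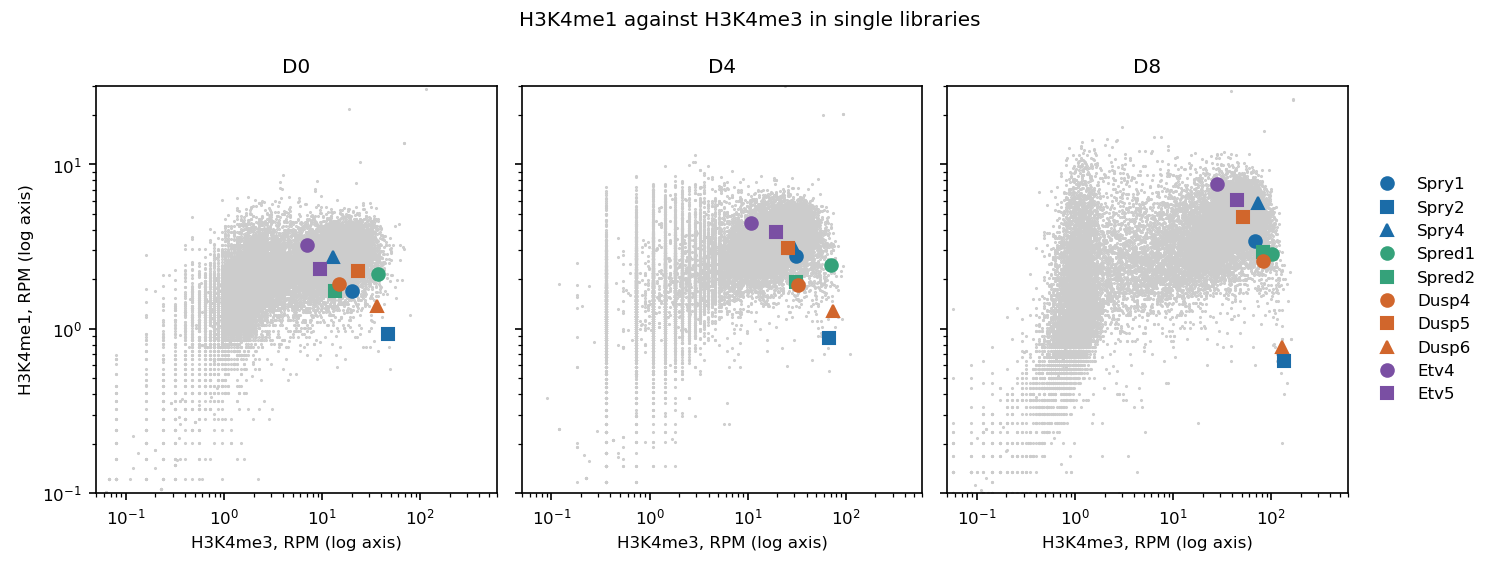
H3K4me1 against H3K4me3 in RPM (both log axes) at D0, D4 and D8; grey points are all genes, coloured symbols the 10 genes. The 10 genes fall along a descending line from Etv4 at the upper left to Spry2 and Dusp6 at the lower right.

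H3K27me3 exceeded the median of the library at 4, 1 and 0 of the 10 genes at D0, D4 and D8. These counts turn on few reads: the median gene had 9 reads at D0, and at D8 Dusp6 and Etv4 equalled the median of 21 reads. In percentile Spry2, Dusp6 and Etv5 stood higher at D8 than at D0, and the other members lower. Of the latter, Spry4, Spred1 and Dusp5 had more RPM at D8 than at D0, on 5, 5 and 4 reads at D0. Their ratios of D8 to D0 were 1.25, 1.25 and 1.11, with intervals that held 1. Dusp4 had 2.54, 0.65 and 0.61 RPM at D0, D4 and D8, on 13, 12 and 7 reads. Its ratio of D8 to D0 was 0.24 (0.081 to 0.65), a centred change of -1.01, and it was the only member of the 5 compared to be at least 2-fold lower, against 1.6% of all genes lower and 4.22% higher. Dusp4 stood at the 4.02nd percentile at D8, against the 72.9th at D0. At D4 against D0 (4 compared) 0 passed, where 3.36% of all genes were higher and 0.702% lower, and at D8 against D4 (3 compared) 0 passed, where 0.0449% were higher and 0.0128% lower. Spry1 had 2.74, 1.84 and 1.22 RPM, Etv4 2.93, 1.57 and 1.83 RPM, and Spred2 1.96, 0.92 and 1.22 RPM, with ratios of D8 to D0 whose intervals all held 1. The remaining 6 genes had between 0.39 and 1.17 RPM at D0, on 2 to 6 reads. Of these, Dusp6 had 1.83 RPM at D8 against 0.76 RPM at D4, a ratio of 2.41 (1.17 to 5.13). At D0, Spry1 and Etv4 reached both the median of H3K4me3 and the 75th percentile of H3K27me3 of their libraries, as did 8.97% of all genes. At D4 and D8, 0 of the 10 did, against 5.57% and 6.05% of genes.

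**Figure D4:**
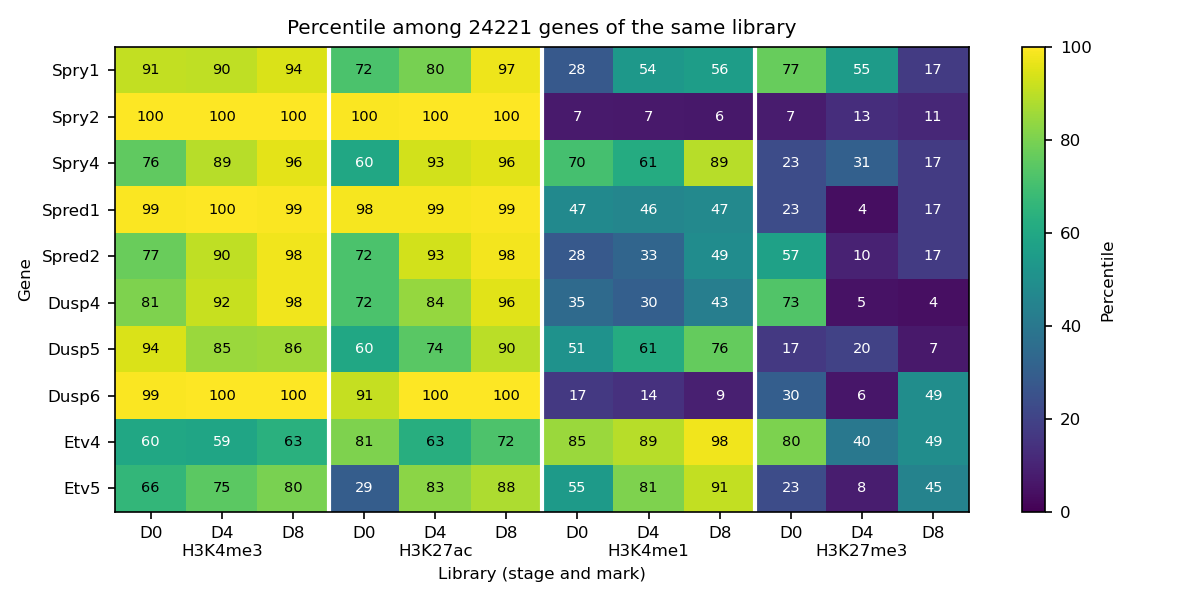
Percentile of each of the 10 genes among all 24221 genes of the same library, rounded, for 4 marks and 3 stages; yellow is high. The H3K4me3 and H3K27ac blocks are high and mostly higher at D8, and the H3K27me3 block darkens after D0 at Spry1, Spred2, Dusp4 and Etv4.

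Seen over the 12 libraries, the 10 genes formed no single pattern. By the mean absolute difference in percentile, the most alike were Spred2 and Dusp4 (5.45 percentile points) and the least alike Spry2 and Etv4 (49.3 points). Outside the 10, the gene nearest to Dusp6 was Meis2, a homeobox factor (4.47 points), and the nearest to Spry2 was Brd2, a reader of acetylated histones (1.69 points). For Spred2 it was Arhgef17 (5.32 points), for Spry1 Ccdc71l (5.02 points), for Etv5 Trnau1ap (5.99 points) and for Etv4 Mllt3 (5.86 points).

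Other genes of the pathway were read from 5 lists by role. In H3K27ac at D8 against D0, 9.82% of all compared genes were at least 2-fold higher and 9.22% lower. In the D0 library of this mark 1 read equals 0.63 RPM and the median gene had 3 reads, so low D0 values rest on few reads. Of 15 compared other transcriptional targets and ETS factors 4 were higher and 0 lower. Ccnd1, the cyclin that carries mitogen signals into the cell cycle, was first with 23.1 RPM at D8 against 1.26 RPM at D0 (centred change 2.79), before Ets2 (1.27), Ier3 (1.27) and Elk4. Etv1, the third gene of the Etv4 and Etv5 subfamily, had 8.84 RPM at D8 against 3.16 RPM at D0 (0.79). Of 19 compared genes of signal transduction 5 were higher and 0 lower, led by the adaptors Shc1 (24.99 RPM at D8 against 5.05 RPM at D0, 1.66) and Gab1 (15.3 against 3.16 RPM, 1.495). Frs3, also among the 5, had 0 RPM at D0. Of the 11 other inhibitors compared, 0 passed in either direction, among them Il17rd (0.52), a membrane inhibitor of FGF signalling. Of 5 receptors, Fgfr2 was lower (2.54 against 5.69 RPM, -1.18) and 0 were higher, with 0.30 for Fgfr1. Of 8 ligands, Fgf2 was higher (8.39 against 1.26 RPM, 1.48) and Fgf7, a fibroblast-derived ligand for epithelia, lower (6.36 against 15.2 RPM, -1.43).

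In H3K4me3 at D8 against D0, 1.84% of all compared genes were at least 2-fold higher and 1.72% lower. Ccnd1 was higher (96.6 RPM at D8 against 13.1 RPM at D0, centred change 1.24), and it was the only one of 15 transcriptional genes to pass. Of 10 compared ligands, Fgf11 (30.5 against 2.69 RPM, 1.44) and Fgf9 (53.0 against 6.97 RPM, 1.18) were higher, and Fgf7 (30.8 against 34.0 RPM, -1.65) and Fgf10 (31.8 against 23.7 RPM, -1.10) lower. As deposited, Fgf10 had the larger value at D8, so it was lower relative to the general shift alone. Receptors (5 compared), signal transduction (21) and other inhibitors (14) had 0 genes past 2-fold in either direction. In H3K27me3 at D8 against D0, where 4.22% of all genes were higher, 2 of 19 ligands compared were higher. These were Fgf22, with 2.18 RPM at D8 and 0 reads at D0, and Fgf16 (2.97 against 0.78 RPM, 1.03). The receptor Fgfr3 was higher (5.93 against 2.07 RPM, 1.096), 1 of 6 receptors compared, and so was the kinase gene Mapk3, which codes for an ERK protein, with 1.83 RPM at D8 and 0 reads at D0, 1 of 10 transduction genes compared. Of 8 other inhibitors compared 3 were higher: Dusp8 (4.97 against 0.98 RPM, 1.46), Spry3 (2.18 against 0.39 RPM, 1.04) and Cbl, with 1.92 RPM at D8 and 0 reads at D0. Of 7 transcriptional genes compared 0 were higher, and the 5 lists had 0 genes lower, against 1.6% of all genes. The lists had 0 genes past 2-fold in H3K4me1 at any comparison, where 0% to 0.04% of all genes were higher and 0.00678% to 1.48% lower. Here too the pseudocount of 1.63 RPM compresses the changes, so these counts do not show a lack of change.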

How the data were processed

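The deposited table gives 1 value per gene in RPM (reads scaled to library size), made by the authors; the unit was inferred, as 93.5% to 94.7% of the values of a column are whole multiples of 1 step within 0.02 of a read. Column headers name the build mm10, and the submitters' processing notes name Bowtie 1.1.0, bedtools, CASAVA 1.8.4 and SAMtools 0.1.19. Which region was counted, and whether duplicates were removed, is not given in the sources used here. Of 20 value columns, 12 matched a label and 8 did not and were not used; symbols turned into dates (27) and genes at 0 throughout (205) were left out.

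A gene was compared if its larger value was at least the mark's median over the stages (5.41, 2.18, 2.49 and 1.76 RPM for H3K4me3, H3K27ac, H3K4me1 and H3K27me3). Pseudocounts were the 25th percentile of positive values (1.44, 1.53, 1.63 and 1.30 RPM). Log2 changes were centred on the median of all compared genes and counted from 2-fold. Intervals are exact 95% Poisson intervals, or exact conditional binomial intervals for ratios without pseudocount, on values taken to the nearest whole read. The median folds they were set against include the pseudocount. With 1 library per group no test was made, and any call refers to these libraries. Python 3.11.15, pandas 2.3.3 and SciPy 1.17.1 were used, and the steps were tested on simulated data. Members, lists and settings were chosen with earlier results of these data known; named genes are the members, the up to 3 most changed list genes per mark and direction at D8 against D0, the nearest genes by percentile, and, chosen after their values were seen, Etv1, Elk4, Il17rd and Fgfr1.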

Additional observations from a re-analysis of the deposited data

How the results depend on the processing

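Counts of the 10 genes past 2-fold were recomputed under 6 alternatives. Without centring, but with the pseudocount kept, the H3K4me3 counts higher were 3, 10 and 6 (0 each when centred). These are for D4 against D0, D8 against D0 and D8 against D4. The H3K27ac count at D8 against D4 was 7 on that scale (1 when centred). In the same order, 13.6%, 90.6%, 40.9% and 7% of all genes passed. The share of all genes past the same limit follows each count below in brackets. Quantile normalization gave 1 (4.68%) higher in H3K4me3 at D8 against D0, 0 (0.564%) higher in H3K27ac at D8 against D4 and 1 (1.07%) lower in H3K27me3 at D4 against D0. Without a filter on low values, 4 (5.52%) were higher in H3K4me3 at D8 against D0 and 3 (1.53%) in H3K27ac at D8 against D4. With the pseudocount divided by 4, H3K27ac had 2 (15.7%) higher at D4 against D0 and 2 (2.06%) at D8 against D4, and H3K27me3 had 1 (4.18%) lower at D4 against D0. With it times 4, H3K27ac had 0 (0.135%) higher at D4 against D0, 2 (1.37%) at D8 against D0 and 0 (0.116%) at D8 against D4, and H3K27me3 had 0 (0.00586%) lower at D8 against D0. The median change that is subtracted moves with the genes compared and the pseudocount; other causes were not tested. The remaining counts stayed within 1.5 times of the value reported, including all 24 when a gene had both to pass 2-fold and to have a counting interval beyond the median change. No paired analysis was possible because each group has 1 library. Depth limits H3K27ac and H3K27me3 at D0 most, where the median gene had 3 and 9 reads.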
